A study of Equus caballus with 10 samples.

Results

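The genes described here are 10 molecules that hold or guide leukocytes on other cells: ICAM1, ICAM2, VCAM1, ALCAM, MCAM, NCAM1, SELE, SELP, THY1 and CD47. They were chosen by name, and all 10 were among the 29196 genes of the deposited table. Of these, 8 had reads in at least 5 of the 10 libraries and were tested together with 17992 genes in all, while ICAM2 and SELP had not. RNA was sequenced from primary tenocytes of the superficial digital flexor tendon of Thoroughbred or Thoroughbred-type horses, grown from 5 donors as lines 090811, 130911, 180412, 250718B and CD, which are called donors 1 to 5. Every donor contributed a library from cells embedded in collagen for 14 days and dosed daily with 100 nM PF-06650833 (PF gels), and another from gels that were given 17 ng/ml IL-1β as well, every 3 to 4 days (IL-1β+PF gels). PF-06650833 inhibits IRAK-4, a kinase that relays signals from the IL-1 receptor, so both groups carried the inhibitor, and cells without it were not analysed here. The lines were expanded in culture before use, several gels were harvested for a library, and the labels name no leukocytes or endothelial cells in the gels.

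Leukocytes leave the blood in steps. Selectins on the vessel wall slow them, and members of the immunoglobulin superfamily, ICAM1 and VCAM1 above all, then arrest them by binding integrins on the leukocyte surface. Inflammatory cytokines such as IL-1β induce ICAM1, VCAM1 and SELE through NFκB in endothelium, and ICAM1 and VCAM1 are also inducible in fibroblasts, where they can retain leukocytes in the tissue. The other members are carried by many cell types: ALCAM, MCAM and NCAM1 join cells to each other, THY1 is a surface marker of fibroblasts and mesenchymal stromal cells, and CD47 binds an inhibitory receptor on phagocytes.

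The deposited values are log2 expression after a variance-stabilizing transformation, on which a gene with no reads stands at 3.43. Log2 values and log2 fold changes below are on this scale, which understates the change of genes with few reads. Inverting the transformation gave normalized counts, and the step between their lowest values gave approximate reads. The libraries held an estimated 26408199 to 35730456 reads on genes from PF gels and 26708240 to 33396286 from IL-1β+PF gels. Values are not per transcript length, so levels were not compared between genes, apart from sums over marker genes. Where a gene is said to make up most of a sum, this is a share of counts and not of transcripts. Differentially expressed here means an adjusted p under 0.05 in limma together with a log2 fold change of 1 or more in either direction. Since the 5 donors stand in both groups, limma was also run with the donor as a replicate block. In bulk RNA, more transcript per cell and more cells that carry it cannot be told apart.

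Of the 8 tested adhesion genes, 1 was differentially expressed without the donor term, ICAM1, which rose. Over all tested genes the share was 6.68%, with 3.11% higher and 3.57% lower in IL-1β+PF gels. With the donor as a replicate block 4 of the 8 were differentially expressed: ICAM1 and VCAM1 rose, and NCAM1 and THY1 fell. The shares over all tested genes were then 8.26%, 4.01% and 4.25%. The groups did not overlap for 2 of the 8, ICAM1 and CD47, against 12.7% of all tested genes. The 5 donors differed in the same direction for 4 of the 8, ICAM1, VCAM1, CD47 and NCAM1, against 32.7% of all tested genes. The median log2 fold change of the 8 was 0.37, against -0.01 over all tested genes.

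**Figure D1:**
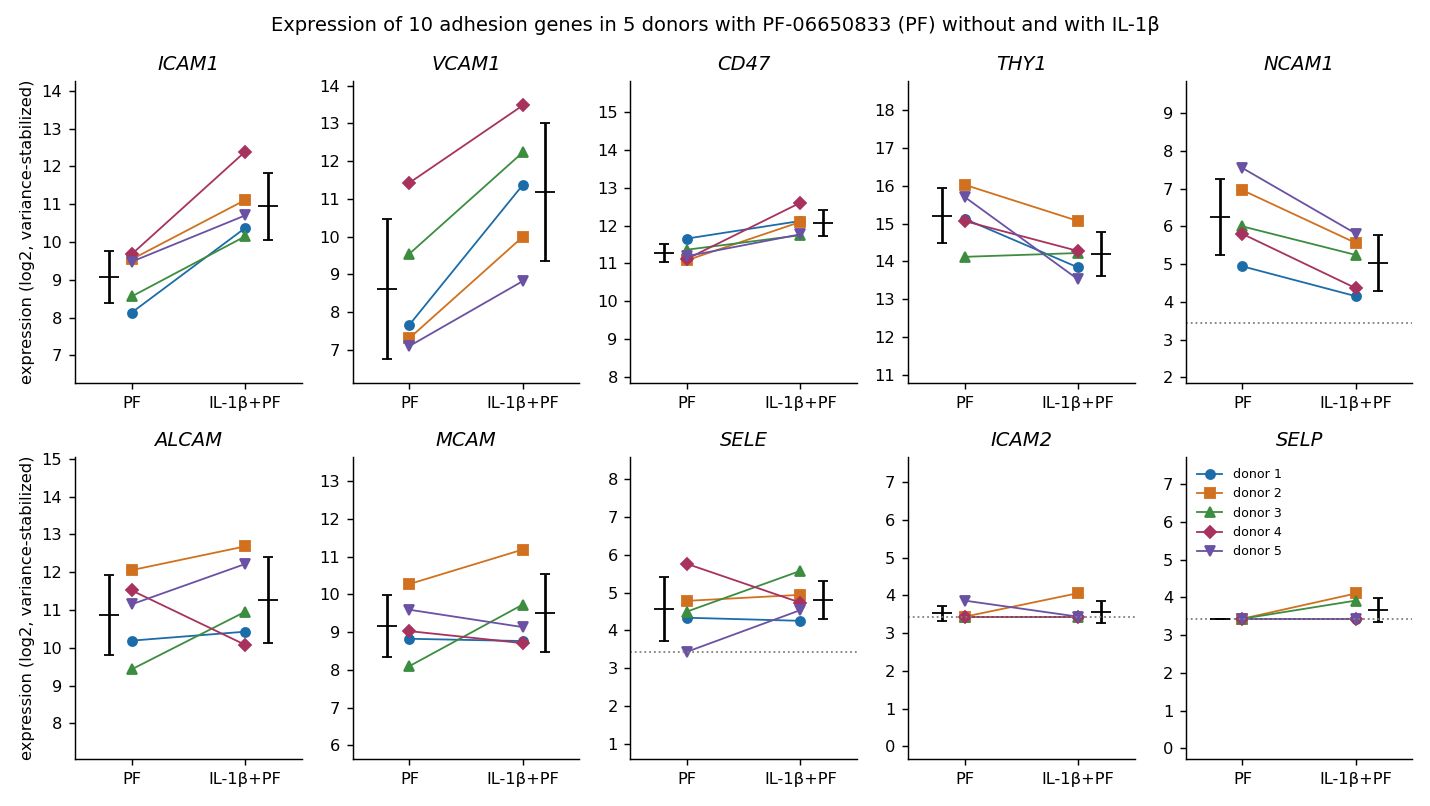
Variance-stabilized log2 expression (vertical axis, 8 log2 units in every panel) of the 10 genes in PF gels and IL-1β+PF gels. Each coloured line joins the 2 libraries of 1 donor, black bars are the mean ± SD of 5 libraries, and the dotted line marks the value of no reads, 3.43. All lines of ICAM1, VCAM1 and CD47 slope upwards and all lines of NCAM1 slope downwards, while those of ALCAM, MCAM and SELE cross.

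ICAM1, the receptor for the leukocyte β2 integrins, had log2 values of 8.13, 9.54, 8.56, 9.68 and 9.48 in donors 1 to 5 in PF gels. In IL-1β+PF gels they were 10.37, 11.11, 10.15, 12.39 and 10.70. Every library with IL-1β lay above every library without it, and the nearest values were those of donor 4 without IL-1β and donor 3 with it. The mean rose from 9.08 ± 0.69 (SD, n = 5) to 10.94 ± 0.89 (SD, n = 5), giving a log2 fold change of 1.87 (standard error, SE, 0.43, 95% confidence interval 0.92 to 2.81, adjusted p = 0.0145 from limma). In normalized counts the ratio within a donor was lowest in donor 5, at 2.38, and highest in donor 4, at 6.70. The values rested on 230 to 736 reads per library in PF gels and 963 to 3761 with IL-1β. Without the donor term and without both libraries of donor 2 the log2 fold change was 1.94 and the adjusted p from limma 0.0549. With the donor as a replicate block and all 10 libraries, the adjusted p from limma was 0.00123 (95% confidence interval 1.39 to 2.35).

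VCAM1, the counter-receptor of the integrin α4β1 on lymphocytes and monocytes, differed between the donors as well as between the groups. In PF gels its log2 values were 7.67, 7.31, 9.55, 11.43 and 7.10 in donors 1 to 5, and in IL-1β+PF gels they were 11.37, 10.00, 12.23, 13.47 and 8.82. Donor 4 without IL-1β thus stood above donors 1, 2 and 5 with it, and the groups overlapped. Within donors the value was higher with IL-1β in 5 of 5, by 1.72 (donor 5) to 3.70 (donor 1) on the log2 scale, and the ratio of normalized counts lay between 3.69 and 14.4. The means were 8.61 ± 1.85 (SD, n = 5) and 11.18 ± 1.83 (SD, n = 5), giving a log2 fold change of 2.57. Without the donor term its standard error was 0.99 and VCAM1 was not differentially expressed (95% confidence interval 0.40 to 4.74, adjusted p = 0.106 from limma). With the donor as a replicate block the standard error was 0.26 and it was (95% confidence interval 1.97 to 3.16, adjusted p = 8.31e-04 from limma). It was also differentially expressed without the donor term when the library of donor 4 in PF gels was left out (log2 fold change 3.27, adjusted p = 0.0384 from limma) or both libraries of donor 4 (2.70, adjusted p = 0.0440). The donor with the highest VCAM1 in both groups was donor 4, and the donor with the lowest in both was donor 5.

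**Figure D2:**
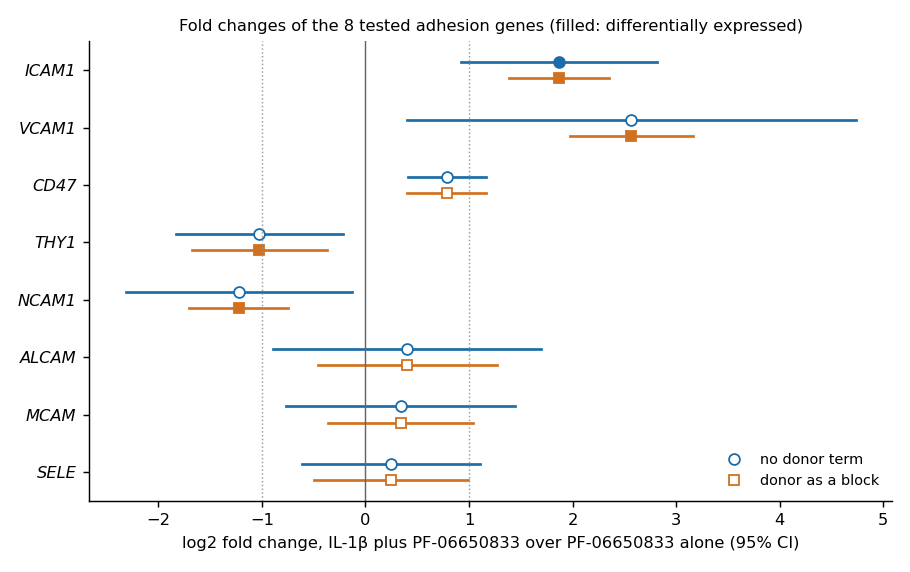
Log2 fold change of IL-1β+PF over PF gels (horizontal axis) for the 8 tested genes, with 95% confidence intervals from limma without a donor term (blue circles) and with the donor as a block (orange squares). Filled symbols are differentially expressed genes and dotted lines mark a log2 fold change of 1 in either direction. The interval of VCAM1 narrows from 0.40 to 4.74 to 1.97 to 3.16 with the block, while that of CD47 stays near 0.41 to 1.16.

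The 3 members known best from endothelium or platelets were at or near the limit of detection. SELP, which is stored in platelets and endothelial cells, had no reads in PF gels and, with IL-1β, 2 reads in donor 2 and 1 in donor 3. ICAM2, a ligand of the same leukocyte integrins as ICAM1, had 1 read in donor 5 in PF gels and 2 in donor 2 with IL-1β, and none in the other 8 libraries. No fold change is given for these genes, whose libraries all lay below 3 reads. SELE, the selectin that endothelium makes in response to IL-1β, had 4, 8, 5, 32 and 0 reads in donors 1 to 5 in PF gels and 3, 11, 25, 7 and 6 with IL-1β. The highest library was donor 4 without IL-1β, and 3 donors were higher and 2 lower with IL-1β. Its log2 fold change was 0.25 (95% confidence interval -0.61 to 1.11, adjusted p = 0.732 from limma, and -0.50 to 0.99 and 0.629 with the replicate block), and without the library of donor 5 in PF gels it was -0.036. At this depth no difference in SELE was detectable.

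Defining markers of endothelium and leukocytes had few or no reads. Of the 12 endothelial marker genes on the list used, TIE1, EMCN and ROBO4 had at most 3 reads in any library, and the mean normalized count of CDH5, the cadherin of endothelial junctions, was 1.11 in PF gels and 1.62 with IL-1β. The normalized counts of the 12 genes summed to 282 to 758 per library in PF gels and 118 to 243 with IL-1β, most of it from ERG, with a mean of 504 and 57.8, and EGFL7, with 39.5 and 79.1. Of the 8 that were tested 1 fell, ERG (log2 fold change -2.68, adjusted p = 3.89e-04 from limma). Of the leukocyte markers, AIF1, TYROBP, CD3E and MS4A1 had no reads in any library, and PTPRC, the pan-leukocyte antigen, had at most 3. LAPTM5, a lysosomal membrane protein of blood cells, fell with the replicate block (log2 fold change -1.67, adjusted p = 0.0255 from limma). The endothelial sum, ERG within it, and LAPTM5 were lower with IL-1β in 5 of 5 donors. Other endothelial markers did not all follow ERG. EGFL7 was higher in 5 of 5 donors (log2 fold change 0.71, adjusted p = 0.0539 from limma). On few reads, PECAM1 and TEK were higher in 4 donors, and VWF and CLDN5 were lower in 4. The part of endothelial cells or leukocytes in the values of ICAM1 and VCAM1 was not tested. The tendon marker genes of the list summed to 980645 to 1597470 normalized counts in PF gels and to 280663 to 1090450 with IL-1β. Most of these counts came from COL1A1, with a mean of 461987 in PF gels and 195352 with IL-1β, and COL1A2, with 443741 and 204621. Of the 10 tested tendon markers 4 fell, SCX, MKX, TNC and COMP, and 6 with the replicate block, COL1A1 and COL1A2 being added. DCN, decorin, went the other way and was higher in 5 of 5 donors (log2 fold change 1.01, adjusted p = 0.268 from limma, and 0.0529 with the block). Over all tested genes 3.57% fell, and 4.25% with the block. TNMD, tenomodulin, had no reads in any library.

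ALCAM and MCAM did not move in 1 direction. ALCAM, which binds CD6 on T cells as well as itself, had log2 values of 10.19, 12.06, 9.43, 11.52 and 11.15 in donors 1 to 5 in PF gels. In IL-1β+PF gels the values were 10.43, 12.69, 10.95, 10.08 and 12.22. It was higher in 4 donors, most of all in donor 3 (by 1.52 on the log2 scale), and in donor 4 the difference was -1.44. The log2 fold change was 0.40 (SE 0.59, 95% confidence interval -0.89 to 1.70, adjusted p = 0.706 from limma), and with the replicate block the interval was -0.46 to 1.27 (adjusted p = 0.480). These intervals include a change of 1 log2 unit. The value was 0.044 without the library of donor 3 in PF gels, 0.050 without that of donor 2 with IL-1β and 0.86 without both libraries of donor 4.

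MCAM, an adhesion molecule of pericytes, endothelium and some stromal cells, had log2 values of 8.82, 10.27, 8.10, 9.03 and 9.59 in PF gels and 8.76, 11.19, 9.73, 8.71 and 9.13 with IL-1β. It was higher in donors 2 and 3, by 0.91 and 1.63, and lower in the other 3 donors, by at most 0.46. The log2 fold change was 0.34 (SE 0.50, 95% confidence interval -0.77 to 1.45, adjusted p = 0.7097 from limma, and -0.36 to 1.04 and 0.462 with the replicate block). Without the library of donor 2 with IL-1β it was -0.080. Of 7 listed markers of mural cells, the perivascular cells that carry MCAM, 3 were differentially expressed, all lower, against 3.57% of all tested genes. The summed normalized counts of the 7 lay between 14827 and 50843 in PF gels and between 12315 and 26917 with IL-1β. Most of the sum came from PDGFRB, with a mean of 14039 in PF gels and 10942 with IL-1β, and MYH11, with 13818 and 6366. The sum was higher with IL-1β in donor 3 only, in which MCAM also had its largest increase and MYH11 went from 1102 to 6466 normalized counts. In donor 2, where MCAM was higher too, the sum was 40510 in PF gels and 16154 with IL-1β. Another listed marker, ABCC9, was higher in 3 donors and lower in 1 (log2 fold change 1.02, adjusted p = 0.575 from limma). The 3 differentially expressed markers, RGS5, CSPG4 and DES, were lower in donor 3 too, by 0.08, 1.10 and 1.40 on the log2 scale. The part of mural cells in the values of MCAM was not tested.

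NCAM1 is a homophilic adhesion molecule of nerve, muscle and natural killer cells. Its log2 values were 4.94, 6.96, 5.998, 5.80 and 7.54 in donors 1 to 5 in PF gels and 4.15, 5.56, 5.24, 4.36 and 5.81 with IL-1β. The groups overlapped, but each donor was lower with IL-1β, by between 0.76 and 1.73 on the log2 scale. The mean changed from 6.25 ± 1.02 (SD, n = 5) to 5.02 ± 0.73 (SD, n = 5), giving a log2 fold change of -1.22. Without the donor term NCAM1 was not differentially expressed (95% confidence interval -2.32 to -0.13, adjusted p = 0.125 from limma), and with the replicate block it was (95% confidence interval -1.70 to -0.75, adjusted p = 0.00574). The values rested on 11, 78, 33, 33 and 157 reads in PF gels and on 2, 25, 17, 3 and 31 with IL-1β, so the size of the change is uncertain. On back-transformed values, log2(normalized count + 1), it was -1.95 with the replicate block (adjusted p = 0.00476 from limma). Of the Schwann cell markers, S100B had at most 3 reads in any library and MBP, a myelin protein, had a mean normalized count of 58.8 in PF gels and 42.3 with IL-1β. The part of these cells in the values of NCAM1 was not tested.

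**Figure D3:**
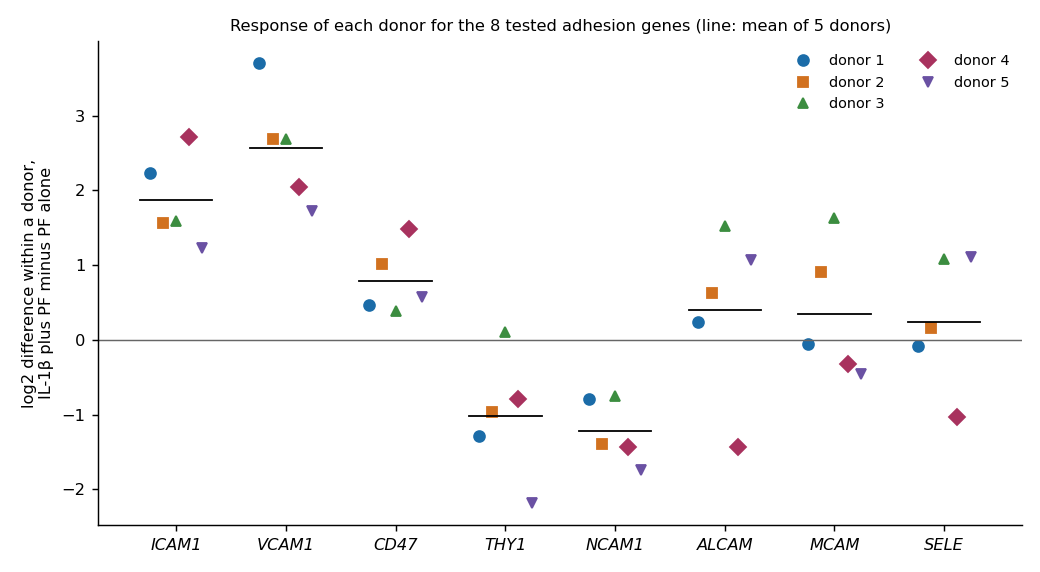
Difference in log2 expression within each donor (vertical axis, IL-1β+PF minus PF) for the 8 tested genes, with a black line at the mean of the 5 donors. The points of ICAM1 lie between 1.22 and 2.71 and those of VCAM1 between 1.72 and 3.70, all above 0. Those of ALCAM spread from -1.44 to 1.52 and donor 3 is the only donor above 0 for THY1.

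THY1, a small lipid-anchored glycoprotein that binds leukocyte integrins and marks fibroblasts, was read deeply, with 13508 to 50837 reads per library in PF gels and 10063 to 30323 with IL-1β. Its log2 values were 15.13, 16.03, 14.12, 15.07 and 15.71 in donors 1 to 5 in PF gels and 13.84, 15.07, 14.22, 14.28 and 13.52 with IL-1β. In 4 donors it was lower with IL-1β, most of all in donor 5, where the ratio of normalized counts was 0.220. Donor 3, the lowest in PF gels, differed by 0.10 in the other direction. The mean changed from 15.21 ± 0.73 (SD, n = 5) to 14.19 ± 0.58 (SD, n = 5), giving a log2 fold change of -1.02 that lies at the minimum required. Without the donor term it was not differentially expressed (95% confidence interval -1.83 to -0.22, adjusted p = 0.0836 from limma), and with the replicate block it was (95% confidence interval -1.68 to -0.37, adjusted p = 0.0367). Without the donor term it also was when the library of donor 3 in PF gels was left out (log2 fold change -1.30, adjusted p = 0.0210 from limma), both libraries of donor 3 (-1.30, adjusted p = 0.0337) or the library of donor 2 with IL-1β (-1.24, adjusted p = 0.0495).

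CD47, the signal that restrains phagocytes through SIRPA, had the smallest SD in each group of the 8 tested genes. Its log2 values were 11.66, 11.09, 11.36, 11.12 and 11.19 in donors 1 to 5 in PF gels and 12.13, 12.10, 11.75, 12.61 and 11.77 with IL-1β. Every library with IL-1β was above every library without it. The mean was 11.29 ± 0.23 (SD, n = 5) and 12.07 ± 0.35 (SD, n = 5), and the ratio of normalized counts within a donor lay between 1.31 (donor 3) and 2.82 (donor 4). The log2 fold change of 0.79 (SE 0.17, 95% confidence interval 0.41 to 1.16, adjusted p = 0.0110 from limma, and 0.0134 with the replicate block) passed the threshold on p but not the minimum fold change, so CD47 was not counted as differentially expressed.

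The variance of each gene was divided between treatment, donor and a remainder. Treatment took 63.4% of the variance of ICAM1 and 68.6% of that of CD47, the genes whose groups did not overlap. The donor took 59.5% of the variance of VCAM1 and 59.1% of that of NCAM1, and 2.64% and 3.70% remained beyond treatment and donor. For ALCAM and MCAM the donor took 70.0% and 73.5% and treatment 4.07% and 4.04%. Over all tested genes the medians were 19.1% for treatment and 45.8% for the donor. The shares are not equal by default, since there are 5 donors and only 2 groups. A gene with reads in 1 library only, such as TIE1, gave 44.4% for the donor and 11.1% for treatment. A donor share near that level therefore shows no donor effect by itself. These shares describe 10 libraries and carry no test.

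**Figure D4:**
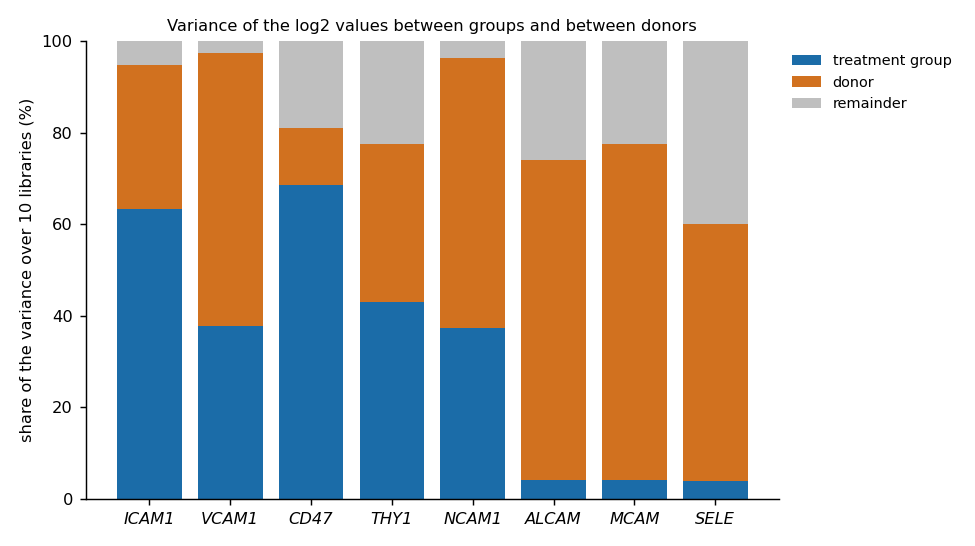
Share of the variance of the log2 values over 10 libraries (vertical axis, %) that lies between the treatment groups (blue), between the donors (orange) and in the remainder (grey) for the 8 tested genes. The blue part is largest for CD47 (68.6%) and ICAM1 (63.4%) and is 4.07% or less for ALCAM, MCAM and SELE.

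Of 53 other tested genes of leukocyte adhesion, 3 rose and 3 fell without the donor term, which is 11.3% of them, against 6.68% of all tested genes. With the replicate block 5 rose and 4 fell, which is 17.0%, against 8.26%. In the 4 sets below, in order, the shares without the donor term were 5.88%, 15.4%, 25% and 0%, from 11 to 17 genes each. Their median log2 fold change was -0.05. Among 17 other immunoglobulin-type and junctional adhesion molecules, L1CAM fell, from 6.68 ± 0.55 (SD, n = 5) to 5.01 ± 0.37 (SD, n = 5), giving a log2 fold change of -1.67 (adjusted p = 0.00387 from limma). It encodes a neural adhesion molecule, as NCAM1 does, and had 5 to 22 reads per library with IL-1β. With the replicate block BCAM, a laminin receptor (log2 fold change 1.25, adjusted p = 0.00509 from limma), and CD200, an inhibitory ligand for myeloid cells (1.42, adjusted p = 0.0179), rose too. The cell junction genes of this set, such as JAM3 (log2 fold change -0.16, adjusted p = 0.489 from limma) and F11R (0.28, adjusted p = 0.547), were not differentially expressed.

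Among 13 selectin ligands and enzymes that build them, CHST2 and CHST4, sulfotransferases that can modify selectin ligands, rose. CHST2 had log2 values of 9.72 to 10.81 in PF gels and 10.97 to 12.01 with IL-1β, which did not overlap, for a log2 fold change of 1.55 (SE 0.25, adjusted p = 0.00241 from limma). CHST4 was higher in 5 of 5 donors, by 1.93 on the log2 scale on average (SE 0.49, adjusted p = 0.0225 from limma). Single libraries or donors were omitted in 15 further fits, all without the donor term. CHST4 was no longer differentially expressed in 7 (log2 fold change 1.68 to 1.88, adjusted p = 0.0506 to 0.116 from limma). These were the fits without donor 1 or 4 in PF gels, without donor 1, 2 or 5 with IL-1β, and without both libraries of donor 1 or 2. With the replicate block and all 10 libraries, CHST4 had an adjusted p of 0.00231 from limma. CD44, a hyaluronan receptor that also serves as a selectin ligand, had a log2 fold change of -0.83 (adjusted p = 0.0103 from limma), below the minimum.

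Among 12 integrin chains and other counter-receptors, ITGA4 rose, and ITGA9 and THBS1 fell. ITGA4, the α4 chain of the VCAM1 receptor, had log2 values of 10.63, 10.47, 10.32, 10.83 and 10.58 in donors 1 to 5 in PF gels and 11.57, 12.26, 10.66, 12.46 and 11.43 with IL-1β. It was higher in 5 of 5 donors, with a log2 fold change of 1.11 (SE 0.29, adjusted p = 0.0241 from limma). Its partner ITGB1 had a log2 fold change of -0.10 (adjusted p = 0.813 from limma). ITGA9, whose integrin also binds VCAM1, fell from 10.69 ± 0.35 (SD, n = 5) to 9.23 ± 0.59 (SD, n = 5), a change of -1.46 (adjusted p = 0.00479 from limma). THBS1, the secreted ligand of CD47, had a log2 fold change of -2.85 (SE 0.67, adjusted p = 0.0162 from limma) and was lower in 5 of 5 donors. In the same 15 fits ITGA4 was no longer differentially expressed in 9, those without donor 2, 3 or 5 in PF gels, without donor 2 or 4 with IL-1β, and without both libraries of donor 1, 2, 4 or 5 (log2 fold change 0.91 to 1.18, adjusted p = 0.0350 to 0.117). THBS1 was not differentially expressed without both libraries of donor 1, 2 or 5 (-2.82 to -2.28, adjusted p = 0.0519 to 0.0909). These fits had no donor term. With the replicate block and all 10 libraries, the adjusted p from limma was 0.00814 for ITGA4 and 0.00830 for THBS1. The leukocyte-specific β2 chain ITGB2 was at 3.70 ± 0.39 (SD, n = 5) and 3.73 ± 0.27 (SD, n = 5), close to the value of no reads.

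Of 11 cytoskeletal proteins that anchor ICAM1 and VCAM1, EZR, ezrin, alone was differentially expressed, and only with the replicate block (log2 fold change -1.06, adjusted p = 0.00355 from limma, and 0.0618 without the block). Of its relatives, RDX, radixin, had a log2 fold change of -0.98 (adjusted p = 2.17e-04 from limma), just short of the minimum, and MSN, moesin, of -0.07 (adjusted p = 0.876).

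**Figure D5:**
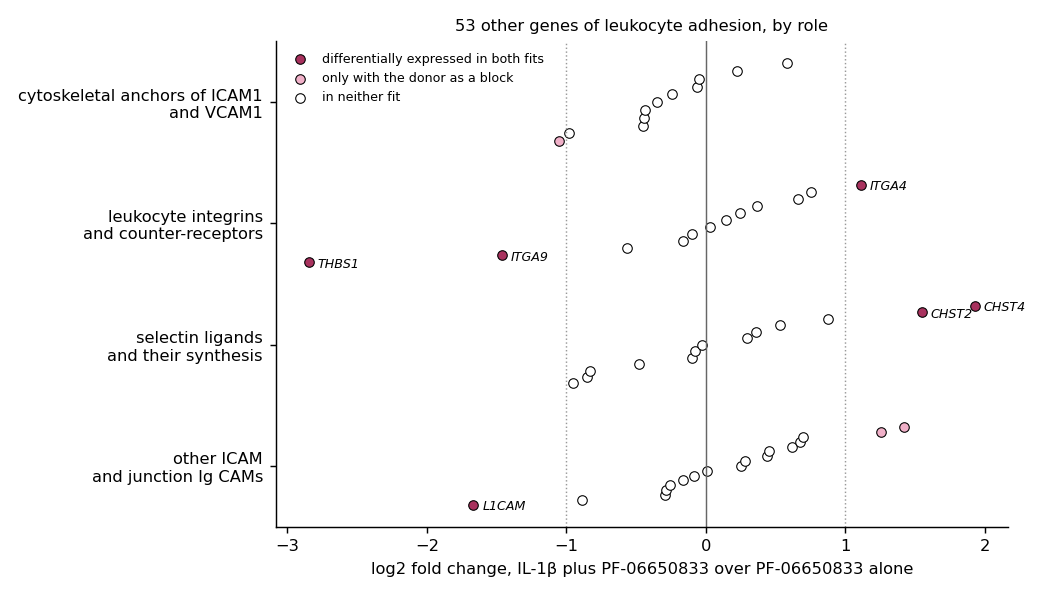
Log2 fold change of IL-1β+PF over PF gels (horizontal axis) for 53 other genes of leukocyte adhesion in 4 sets by role, each point a gene, ordered by fold change within a set. Dark points are differentially expressed with and without the donor block, pale points with the block only, and open points in neither. The 6 dark points are THBS1, L1CAM, ITGA9, ITGA4, CHST2 and CHST4.

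The genes most like ICAM1 across the 10 libraries, among 13857 genes with a symbol, were IL15RA (Pearson's r = 0.977), PSME2 (0.963) and SLC15A3 (0.963). IL15RA encodes a receptor chain for interleukin 15, PSME2 an activator subunit of the proteasome, and SLC15A3 a peptide transporter. Their own log2 fold changes were 2.08, 0.88 and 1.74. The points share donors and groups, so the correlations are a description.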

How the data were processed

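Per the labels and the methods of the study, reads were assigned by the authors to EquCab3.0 transcripts with Salmon (version 1.8) and analysed with DESeq2 (version 1.36). The authors deposited log2 values, normalized between libraries, for 10 libraries. The kind of transformation is not given in the sources used here and was recognised from the values, whose lowest, 3.43, is common to all libraries. Inverting it put 65.4% to 83.8% of low values within 0.15 of a whole read, against 30% for even spread.

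Log2 values were compared in limma (version 3.58.1) under R (version 4.3.3), with the prior variance following the mean and p-values adjusted by Benjamini and Hochberg's method across all tested genes. A gene was tested with reads in 5 or more libraries (4 where libraries were left out). The choice of limma is a departure from the authors' count model, which needs counts. The code was tested on simulated data. The donor was taken from the line in the sample titles. Libraries of 1 donor deviated together from their group means (r = 0.367 to 0.506 over 5 pairs), so blocked values stand beside results they change. Between donors the mean was -0.107, but centring on the group means by itself pulls that value below 0, so it is no independent comparison. Donors are separate animals.

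Members and gene lists were chosen with earlier results of these data known. The genes named are all members, the other adhesion genes differentially expressed without the donor term (at most 12, and 4 a set), genes beside which a result stands, and the 3 genes most correlated with each differentially expressed member. BCAM, CD200, EZR, RDX, MSN, JAM3, F11R, CD44, ITGB1, ITGB2 and the marker genes given by name were named after their values were seen. Of 123 listed genes, 119 matched a RefSeq table of another horse assembly, used for names only. Of the other adhesion genes 62 were listed, 59 were in the table and 53 were tested. Platelet markers (4 of 5 in the table) summed to 300.3 to 549 normalized counts in PF gels, and the range was 361 to 433 in IL-1β+PF gels. Some marker genes and sums that include them are not reported here. Alternatives were other scales, filters, normalizations, variance models and thresholds, the block, and leaving out libraries or donors.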

Additional observations from a re-analysis of the deposited data

Results flagged for a closer look

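Of 31 groups of 5 libraries, 3 held 1 library that stood well apart from its 4 fellows. For continuous values about 1.55 such groups would arise by chance. For ICAM2 the libraries were the PF gels of donor 5, at 3.86 (1 read), and the IL-1β+PF gels of donor 2, at 4.06 (2 reads). The remaining ICAM2 libraries had no reads and tied at 3.43, so any read stands apart and the number by chance does not apply. For CHST2 it was the PF gels of donor 3, at 10.81 (1349 reads), with the other donors at 9.72 to 9.82.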

How the results depend on the processing

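With the donor as a replicate block, 4 adhesion genes were differentially expressed (2 higher, 2 lower), as they were with the block on back-transformed values, log2(normalized count + 1). Array weights gave 2 (1 lower), and dropping the minimum fold change 2 (2 higher). The block without that minimum, a setting chosen after seeing the data, gave 5 (3 higher, 2 lower). Among the 53 other adhesion genes the block gave 5 higher, the block on back-transformed values 10 (5 higher, 5 lower), no minimum 10 (6 lower), the block without the minimum 18 (8 higher, 10 lower), and array weights 6 lower. Over all tested genes the block on back-transformed values gave 1809 (891 higher), no minimum 2782 (1362 higher, 1420 lower), and the block without the minimum 3996 (1969 higher, 2027 lower). Leaving out single libraries or both libraries of a donor, always without the donor term, gave 762 to 1422 over all genes (356 to 648 higher, 390 to 775 lower). It gave 0 to 2 adhesion genes (0 to 2 higher, 0 to 1 lower) and 3 to 9 other adhesion genes (1 to 3 higher, 2 to 6 lower). The log2 fold change of MCAM then ranged from -0.080, without donor 2 of the IL-1β+PF gels, to 0.62, and that of SELE from -0.036, without donor 5 of the PF gels, to 0.56. That of ALCAM ranged from 0.044, without donor 3 of the PF gels, to 0.86, without both libraries of donor 4. The cause was not tested. Other scales, filters, normalizations and a variance model without trend left each count within 1.5 times its value. THY1 was also differentially expressed with array weights (log2 fold change -1.11, adjusted p = 0.0456 from limma). With few reads in SELE, NCAM1, ICAM2 and SELP, depth limits what can be said of them.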

Other observations

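Among the marker genes looked at beside the adhesion molecules, several from the endothelial and mural lists fell in IL-1β+PF gels. The fall was not particular to these lists. On the tendon list COMP, SCX, MKX and TNC fell, with log2 fold changes of -3.63, -3.24, -2.85 and -2.04. ERG, a transcription factor of endothelium that is also found in skeletal connective tissue, fell from a mean log2 value of 8.93 ± 0.67 (SD, n = 5) in PF gels to 6.26 ± 0.30 (SD, n = 5) with IL-1β, and was lower in 5 of 5 donors. Of the mural markers, DES, an intermediate filament of muscle cells (log2 fold change -2.98), RGS5, a regulator of G protein signalling (-1.96), and CSPG4, a surface proteoglycan (-1.84), fell and were lower in 5 of 5 donors each, at adjusted p-values of 0.00212 to 0.0106 in limma. ERG, DES, RGS5 and CSPG4 fell with the replicate block too. PDGFRB, which pericytes share with fibroblasts, had a log2 fold change of -0.38 (adjusted p = 0.316 from limma).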
